A study of Drosophila melanogaster with 81 samples.

Results

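Members of the Notch pathway, 8 genes, were followed through 26 peak lists of histone marks in Drosophila melanogaster embryos: the ligand Dl, the receptor N, the nuclear factors Su(H) and H, the ubiquitin ligase neur, its small inhibitors Tom and Brd, and the cell-fate determinant numb. They were taken by name, 8 of 13946 protein-coding genes on the chromosome arms, each as its gene span with 2 kb on either side, called its window here. The marks were mapped by CUT&Tag, in which an antibody guides a transposase to a histone mark so that the DNA beneath it is tagged and sequenced. HisC embryos were homozygous for Df(2L)HisC, a deletion of the replication-dependent histone gene cluster. One copy of that chromosome carried P{GAL4-twi.2xPE}, a GAL4 driven by a twi enhancer, and the other P{UAS:eYFP}AH2, and embryos were picked by their eYFP. Some HisC libraries, among them those for H3K27me3 at 4.5 to 5 h, are labelled with the deletion alone. The w1118 embryos had neither the deletion nor the transgenes, so deletion, background, transgenes and picking differed together between the genotypes and cannot be told apart. Whole embryos of both genotypes were taken at 3 ages after laying, namely 3.5 to 4 h, then 4.5 to 5 h, then 5.5 to 6 h. H3K4me3 was mapped at all 3 ages, and H3K27ac, H2AK9ac, H2BK16ac, H3K27me3 and H3K36me3 at the later ages only. Where values are paired without a time, the first is for 4.5 to 5 h and the second for 5.5 to 6 h.

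Notch signalling passes a choice of fate between touching cells. Delta on one cell binds Notch on its neighbour, Notch is cut, and its inner part enters the nucleus, joins Su(H) and turns on targets such as the E(spl) genes. Without that signal, Hairless holds Su(H) in a repressing complex with Groucho and CtBP. Neuralized drives the endocytosis of Delta that signalling needs, Bearded-family proteins such as Tom and Brd bind Neuralized and block it, and Numb is handed to 1 daughter of a dividing precursor, where it blocks Notch. In these embryos the pathway acts in the mesectoderm and in the choice of neuroblasts. Of the marks, H3K4me3 is best known from the starts of active genes, H3K27ac from active enhancers and starts, H3K36me3 from the bodies of transcribed genes and H3K27me3 from Polycomb repression.

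The genes differ widely in size, which sets how a covered share reads. In dm6, N lies on chromosome X from 3134870 to 3172221, Dl on 3R from 19302731 to 19326217, H on 3R from 20621938 to 20628915 and neur on 3R from 9020348 to 9039471. Su(H) lies on 2L from 15039488 to 15043334 and numb on 2L from 9437469 to 9464184. Tom, on 3L from 14969344 to 14970306, and Brd, on 3L from 14972667 to 14973198, are 963 and 532 bp long and stand 2360 bp apart, so their windows share 1640 bp and a peak between them counts for both. Windows also reach into neighbours: kirre, CG18508 and Fcp3C beside N, yellow-c, CIAPIN1 and ck beside Su(H), CG5466 and Pi3K92E beside H, tgo and hyx beside neur, CG3769 and RpS28-like beside numb, and Ocho, another Bearded-family gene, beside Brd. The noncoding lncRNA:CR44175 and hpRNA:CR46343 lie beside Dl, and asRNA:CR31429 and CG33723 lie inside the spans of neur and numb. The lower-coordinate end of hyx, at 9038760, also lies inside the span of neur. The annotation used here gives no strand, so ends are named by coordinate.

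Each list pooled the libraries of its group and holds peak positions with no height, so there was 1 list per group, no spread between replicates and no test. Covered length, in bp of a window under peaks, was the measure, and depth behind a peak is unknown. HisC lists held 7479 to 12856 peaks and w1118 lists 4588 to 13436. In H3K4me3, H3K27me3 and H3K36me3 the HisC lists had more peaks than w1118 at every time and narrower ones, with H3K27me3 medians of 778.5 and 924 bp in HisC and 1634 and 1571.5 bp in w1118. None of the 13 HisC lists and none of the 13 w1118 lists had a peak across the 111 histone genes at 2L from 21416953 to 21541681, so the lists do not check the deletion. Of 11 germ-layer genes looked at for H3K4me3, 11, 10 and 10 had a peak in HisC and 10, 9 and 9 in w1118 at the 3 times; a change in the makeup of cells and a change in every cell cannot be told apart in whole embryos.

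Tom and Brd stood apart from the other members. In HisC both had no H3K27me3 and no H2BK16ac peak at either time, and little or no H3K36me3, while in w1118 each mark covered them at both times. Dl and numb had less H3K36me3 in HisC at both times, N had less H3K27ac, and H had more H3K27ac. Neur and Su(H) had no mark that differed the same way at both times. Here a member counted as lower or higher when the covered length differed by at least 1.5-fold the same way at both 4.5 to 5 h and 5.5 to 6 h, among members with at least 200 bp in 1 list of each time.

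**Figure D1:**
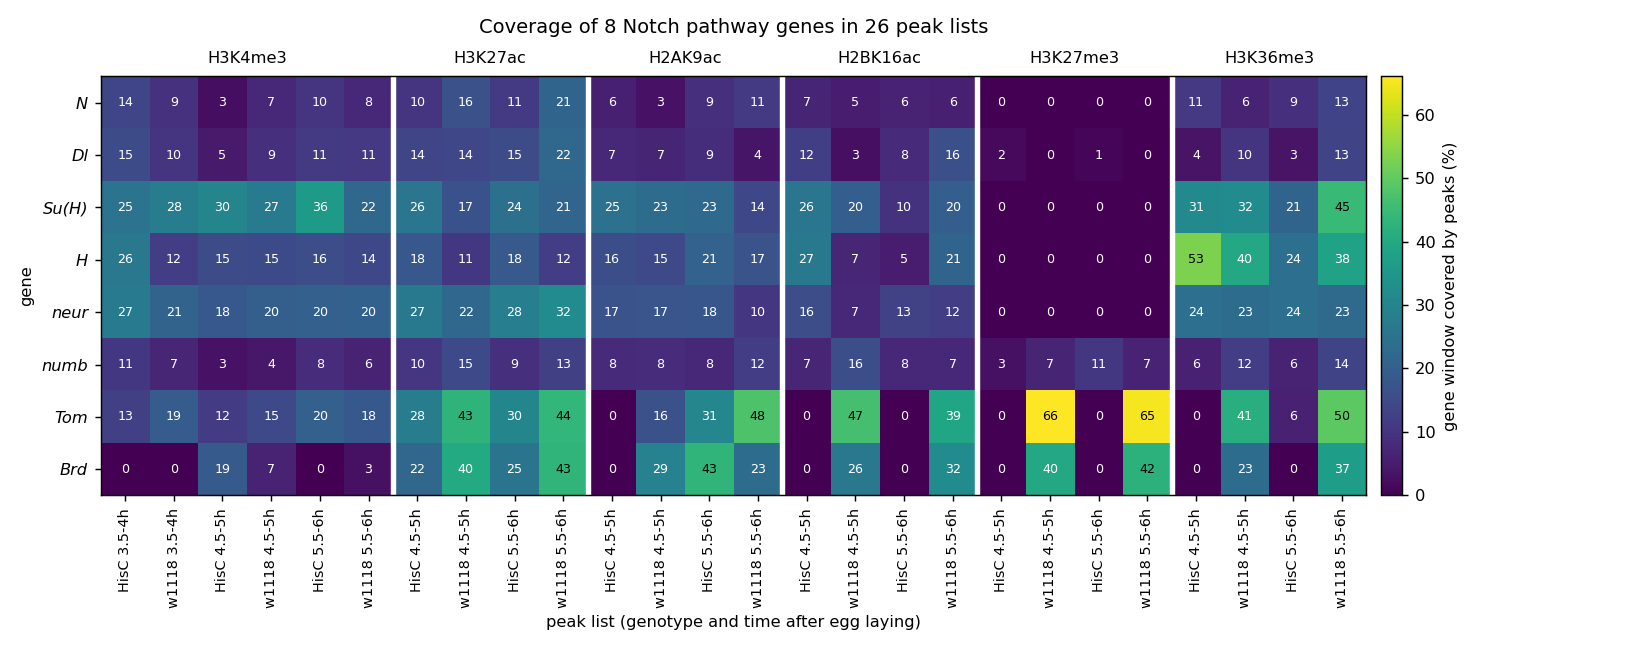
Percent of each gene window covered by peaks (number and colour) for 8 genes in 26 pooled lists, grouped by mark, with HisC left of w1118 at each time after egg laying. Tom and Brd have 0 in the HisC columns of H2BK16ac and H3K27me3, against 46.5% and 66.0% for Tom in w1118 at 4.5 to 5 h.

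By that rule H3K36me3 was lower in HisC at 4 of 8 members, Dl, numb, Tom and Brd, beside 23.4% of all tested genes, and higher at 0, beside 10.9%. Brd was at 0 in both HisC lists and so could only be called lower, and Tom was at 0 in the HisC list of 4.5 to 5 h. The windows of Tom and Brd overlap, so the 4 members are not 4 separate places. H2BK16ac was lower at 2 of 8, Tom and Brd, beside 10.7%, and higher at 0, beside 17.6%. Both were at 0 in both HisC lists, passed the minimum through w1118 alone and had to be called lower, so nothing is read from this count. H3K27ac was lower at 2 of 8, N and Brd, beside 26%, and higher at 1, H, beside 15.4%, shares near those of all genes. H2AK9ac was lower at 1 of 8, Tom, beside 13.9%, and higher at 0, beside 13.1%. H3K4me3 was lower at 0 and higher at 0 of 7 tested members, beside 4.52% lower and 18.3% higher among all genes. H3K27me3 could be looked at in 4 members only: it was lower at Tom and Brd, beside 16%, and higher at Dl, beside 58.7%. Those 3 reached 200 bp in 1 genotype alone and so had to differ, and their count says nothing further.

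Dl encodes the main Notch ligand of the embryo. Its H3K36me3 covered 971 and 929 bp in HisC at 4.5 to 5 h and 5.5 to 6 h, against 2762 and 3705 bp in w1118. The peak near the lower-coordinate end was narrower in HisC at both times. Of the other w1118 peaks, 1 of 737 bp from 19315071 was in the list of 4.5 to 5 h only and 1 of 1760 bp from 19310748 in that of 5.5 to 6 h, with a piece of 272 bp overlapping its place at 4.5 to 5 h, and the HisC lists had no peak at either place. H3K4me3 covered 4240, 1299 and 3061 bp in HisC over the 3 times and 2794, 2499 and 3002 bp in w1118. All 3 w1118 lists had 1 peak of 2173 to 2240 bp over the higher-coordinate end of the gene. No HisC list reached that end: the nearest peaks stopped at 19324927, 19325617 and 19325660, short of 19326217. H3K27me3, at 0 in both w1118 lists, covered 448 and 307 bp in HisC, small patches that pass only while short peaks and short covered lengths are kept. H3K27ac covered 3763 and 4245 bp in HisC, against 3862 and 6098 bp in w1118, and H2AK9ac 1990 and 2398 bp, against 1869 and 1028 bp.

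A stretch of Dl of 1945 bp, 3R from 19304683 to 19306627, carried the w1118 H3K36me3 peak of 5.5 to 6 h. It was picked out after its peaks were seen, and other H3K36me3 stretches were not counted in this way, so nothing is read from its counts. In HisC, 10 of 11 lists of the other 5 marks had a peak there, against 4 of 11 in w1118. H3K27ac covered 1522 and 1857 bp of it in HisC, against 0 and 0 bp in w1118. H3K4me3 covered 1748, 0 and 562 bp in HisC, against 0, 0 and 0 bp in w1118, and both H3K27me3 patches in HisC lie inside it. H2AK9ac covered 988 and 1321 bp of the stretch in HisC, against 791 and 380 bp in w1118. H2BK16ac covered 1425 and 1637 bp of it in HisC, against 725 and 1426 bp in w1118.

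N encodes the Notch receptor. Its H3K27ac covered 4197 and 4640 bp in HisC, against 6732 and 8777 bp in w1118; the difference is above 1.5-fold but below 2-fold at both times. H3K4me3 covered 5697, 1037 and 4236 bp in HisC and 3875, 3033 and 3129 bp in w1118. Each w1118 list had 1 peak of 1979 to 2154 bp on the lower-coordinate end of N. In HisC at 3.5 to 4 h the peak closest to that end started at 3136233, 1363 bp inside the gene. At 4.5 to 5 h HisC had pieces of 280 and 408 bp there, and at 5.5 to 6 h 1 peak of 1966 bp from 3134835, much as in w1118. HisC at 3.5 to 4 h had 12 H3K4me3 peaks of median width 461 bp across N, against 3 in w1118 of median width 1028 bp. The whole lists differed the same way, with 12294 peaks of median 464 bp in HisC and 6475 of median 874 bp in w1118, so this is not particular to N. H3K36me3 covered 4504 and 3713 bp in HisC and 2624 and 5454 bp in w1118, higher at the first time and lower at the second. H2AK9ac covered 2448 and 3808 bp in HisC and 1318 and 4634 bp in w1118, and H2BK16ac 2875 and 2559 bp, against 2207 and 2423 bp. H3K27me3 was at 0 in N in all 4 lists, as in Su(H), H and neur.

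Su(H) encodes the DNA-binding factor that takes the Notch signal to its targets. H3K4me3 covered 1982, 2357 and 2821 bp in HisC and 2183, 2133 and 1723 bp in w1118. H3K27ac covered 2042 and 1917 bp in HisC and 1307 and 1687 bp in w1118, and its place differed. Both w1118 peaks crossed the lower-coordinate end, from 15038612 to 15039918 and from 15038430 to 15040116. Each HisC list instead had 1 peak in the flank over CIAPIN1 that ended at 15038760 or 15038850, before Su(H) starts, and 1 inside the gene of 769 or 554 bp. H3K36me3 covered 2470 and 1660 bp in HisC and 2494 and 3494 bp in w1118, so it was near equal at 4.5 to 5 h and shorter in HisC at 5.5 to 6 h. H2AK9ac covered 1957 and 1771 bp in HisC, against 1840 and 1116 bp, and H2BK16ac 2030 and 759 bp, against 1557 and 1542 bp in w1118.

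H encodes Hairless, the partner that turns Su(H) into a repressor. Its H3K4me3 was the closest match among the members: 1 peak over the lower-coordinate end of 1675 and 1707 bp in HisC and of 1630 and 1561 bp in w1118 at the later times. Of the length covered in either genotype 95.2% and 88.0% was shared, beside medians of 53.8% and 58.2% over all tested genes. At 3.5 to 4 h HisC had 4 peaks and 2905 bp in the whole window, against 1 peak and 1322 bp in w1118. The HisC peak that crossed the lower-coordinate end was 745 bp wide, and the w1118 peak of 1322 bp crossed it too. H3K27ac covered 1981 and 2024 bp in HisC and 1170 and 1311 bp in w1118. In HisC 1 further peak, of 1031 and 743 bp, lay inside H from 20625371 and 20625282, where the w1118 lists had none. The call for H ended at 2-fold and when peaks under 500 bp were left out. H3K36me3 covered 5830 and 2653 bp in HisC and 4366 and 4164 bp in w1118, and H2AK9ac 1738 and 2287 bp, against 1606 and 1850 bp.

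**Figure D2:**
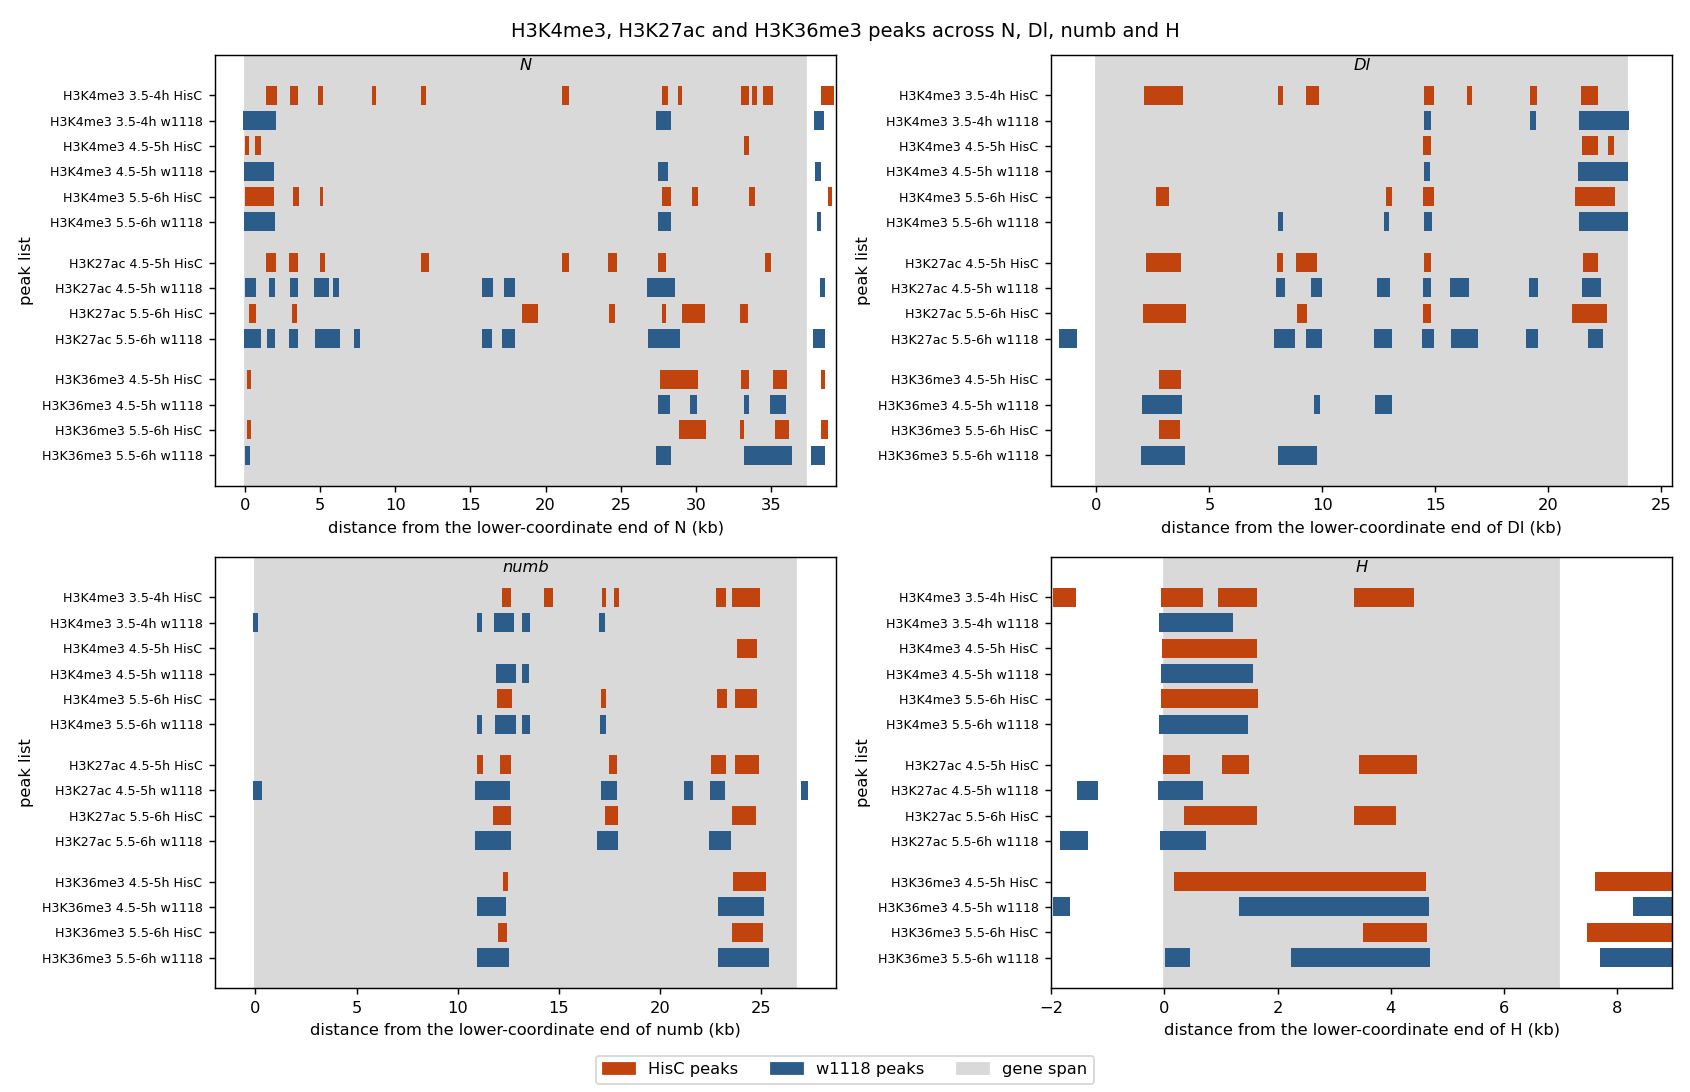
Peak positions of H3K4me3, H3K27ac and H3K36me3 in the windows of N, Dl, numb and H, one row per pooled list with HisC above w1118, drawn as distance in kb from the lower-coordinate end of each gene (grey). The w1118 H3K4me3 peak over the higher-coordinate end of Dl has no HisC peak that reaches the end, and the H3K4me3 peak of H is alike in both genotypes at the 2 later times.

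The neur gene encodes the ubiquitin ligase that makes Delta active. Its H3K36me3 was near equal, with 5554 and 5567 bp in HisC and 5367 and 5252 bp in w1118. H3K4me3 covered 6352, 4189 and 4685 bp in HisC and 4877, 4597 and 4731 bp in w1118. That near balance mixes the gene with its neighbours. Within the span alone H3K4me3 covered 954 and 1504 bp in HisC at the later times, against 2009 and 2305 bp in w1118, and neur then counts as lower. That span still includes its overlap with hyx. A peak over tgo was 2154 and 2211 bp wide in HisC, against 1057 and 863 bp in w1118. The HisC peaks start at 9017898 and 9017841, outside the window, which begins at 9018348, so only part of each counts. H3K27ac covered 6152 and 6514 bp in HisC and 5158 and 7355 bp in w1118, and H2AK9ac 3887 and 4082 bp, against 4017 and 2393 bp. H2BK16ac covered 3634 and 3010 bp in HisC, against 1686 and 2765 bp in w1118.

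Tom encodes a Bearded-family inhibitor of Neuralized. In w1118, H3K27me3 covered 3276 and 3228 bp of its window of 4963 bp, in 2 peaks at each time. The peak over Tom was 3723 bp, from 14966361 to 14970083, and then 3596 bp, from 14966310 to 14969905. It started outside the window at both times, and the rest of the covered length was the edge of the peak over Brd. In HisC, H3K27me3 covered 0 and 0 bp, and the nearest HisC peak was 27.6 and 27.8 kb away. H2BK16ac covered 0 and 0 bp in HisC and 2309 and 1936 bp in w1118. H3K36me3 covered 0 and 298 bp in HisC, against 2059 and 2457 bp in w1118, and H2AK9ac 0 and 1517 bp, against 813 and 2366 bp. The H2AK9ac call ended without flanks, with flanks of 5 kb and at 2-fold. The gene kept the other marks: H3K27ac covered 1387 and 1505 bp in HisC and 2130 and 2171 bp in w1118, and H3K4me3 622, 582 and 999 bp in HisC and 948, 724 and 905 bp in w1118 over the 3 times. An H3K4me3 peak overlapped Tom in all 6 lists.

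Brd encodes Bearded, the founding member of that family. H3K27me3 covered 0 and 0 bp in HisC and 1800 and 1919 bp in w1118. The w1118 peak over Brd ran from 14971771 to 14973315 and then from 14971641 to 14973559. At 4.5 to 5 h a further w1118 peak reached the window. H2BK16ac covered 0 and 0 bp in HisC and 1194 and 1446 bp in w1118, and H3K36me3 0 and 0 bp, against 1063 and 1664 bp. H3K27ac covered 986 and 1147 bp in HisC as separate peaks, against 1826 and 1952 bp in w1118 as 1 run over the gene. That call ended without flanks, with flanks of 5 kb and at 2-fold. H3K4me3 covered 0, 850 and 0 bp in HisC and 5, 297 and 137 bp in w1118; the 850 bp peak at 4.5 to 5 h overlapped Brd, as did a w1118 peak of 251 bp, while at the other times the w1118 bases were the edge of a peak over Ocho. H2AK9ac went in opposite directions, with 0 and 1958 bp in HisC and 1323 and 1059 bp in w1118.

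**Figure D3:**
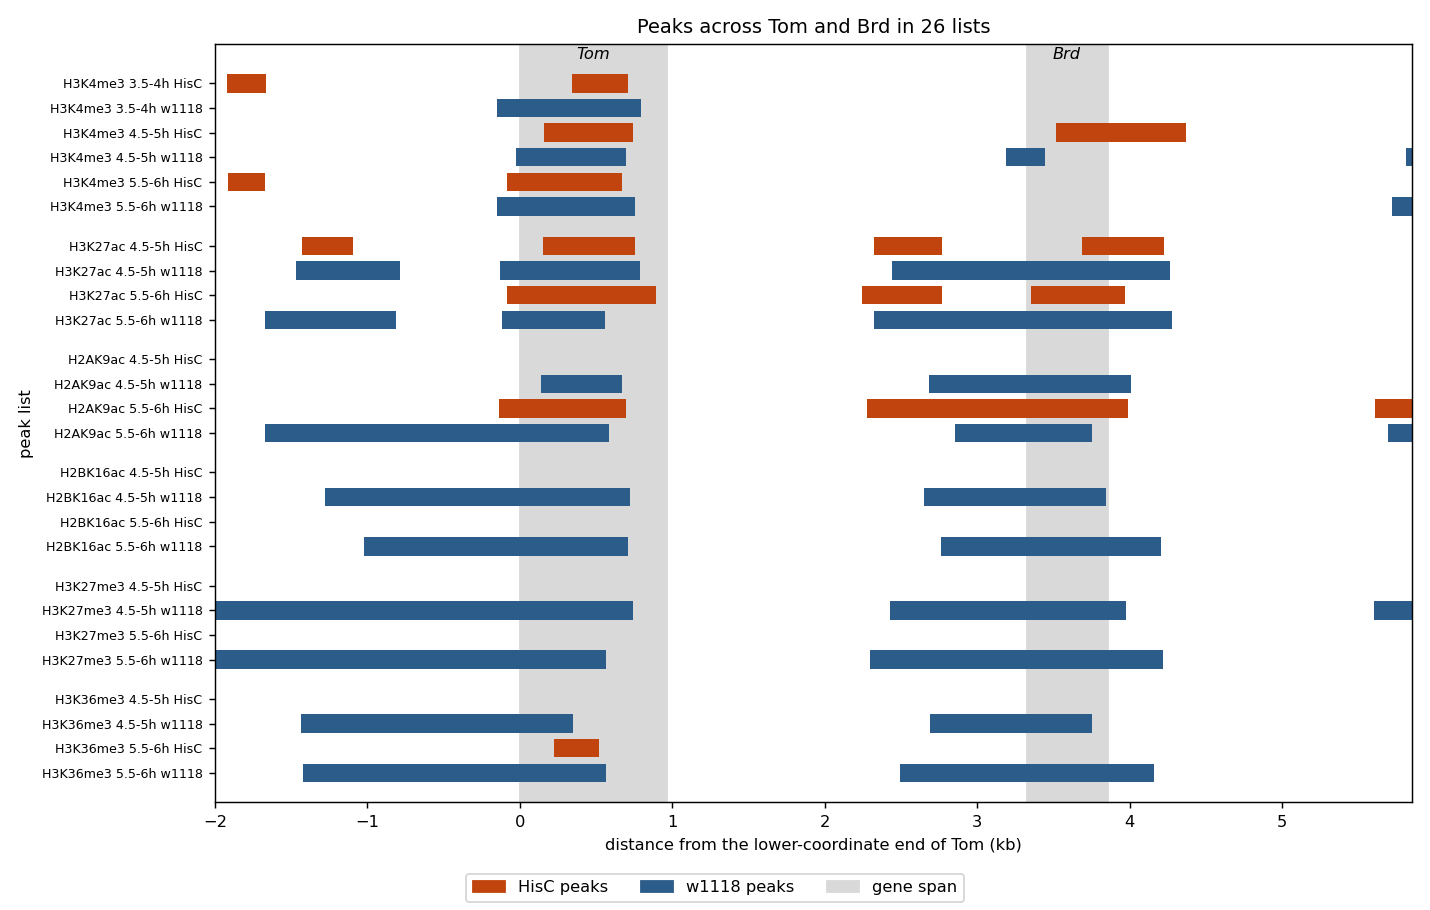
Peaks of all 6 marks across Tom and Brd (grey) in 26 pooled lists, HisC above w1118 at each time, as distance in kb from the lower-coordinate end of Tom. HisC rows of H2BK16ac and H3K27me3 are empty, while H3K4me3 and H3K27ac rows of HisC hold peaks in or beside Tom.

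In w1118 the marks lay on top of each other at Tom and Brd. At Tom, 63.6% and 67.3% of the H3K27me3 bases also lay under H3K27ac, and all of the H3K36me3 bases lay under H3K27me3. Bases under at least 4 marks came to 0 and 298 bp at Tom in HisC, against 1602 and 2189 bp in w1118, and to 0 and 0 bp at Brd in HisC, against 1161 and 1396 bp in w1118. Marks on the same nucleosome and marks in different cells of the embryo cannot be told apart. A peak of any mark was in 7 of 13 HisC lists at Tom and 4 of 13 at Brd, against 13 of 13 w1118 lists at each. Genes with H2BK16ac of at least 200 bp in both w1118 lists had none in both HisC lists in 3.94% of cases, and with H3K27me3 in 10.2%. Those shares are of 7487 and 2015 genes. Both held for 11 genes, which are not 11 separate places. The windows of Tom and Brd overlap, and that of Brd reaches into Ocho. Overlaps among the rest of the 11 were not looked at. How many genes carried both marks in w1118 was not counted, so no share is given. Tom, Brd and their neighbour Ocho were among these 11, with vas, vig, solo, nullo and 4 genes that have only CG numbers; this set was drawn up after the values of Tom and Brd were seen.

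The whole Bearded complex lacked H3K27me3 and H2BK16ac peaks in HisC in the same way. It was taken from BobA to Ocho with flanks, 3L from 14943499 to 14978040, after the values of Tom and Brd were seen. Just below that start, HisC had H3K27me3 peaks of 2800 and 2630 bp that ended at 14941767 and 14941551. H3K27me3 covered 0 and 0 bp of these 34.5 kb in HisC, against 13820 and 13225 bp in 11 and 11 peaks in w1118, or 40.0% and 38.3%. H2BK16ac covered 0 and 0 bp in HisC and 5287 and 3952 bp in w1118. H3K36me3 covered 0 and 553 bp in HisC and 3551 and 5668 bp in w1118, and H2AK9ac 0 and 3501 bp, against 2907 and 5619 bp. H3K27ac covered 6029 and 6603 bp in HisC and 9192 and 11624 bp in w1118. H3K4me3 covered 5141, 2133 and 3210 bp in HisC and 2351, 2270 and 2316 bp in w1118, so that mark was not shorter in HisC at 3.5 to 4 h or 5.5 to 6 h.

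Numb is the determinant that blocks Notch in 1 daughter cell. H3K36me3 covered 1858 and 1949 bp in HisC and 3711 and 4179 bp in w1118, in the same 2 places. The call for numb ended at 2-fold and with flanks of 5 kb. H3K4me3 covered 3285, 997 and 2565 bp in HisC and 2153, 1276 and 1947 bp in w1118. At 4.5 to 5 h no base was shared: the only HisC peak ran from 9461284 to 9462280, while the w1118 peaks lay near 9449371 and 9450662. H3K27ac covered 3172 and 2709 bp in HisC and 4513 and 3880 bp in w1118, H2AK9ac 2452 and 2364 bp, against 2609 and 3718 bp, and H2BK16ac 2200 and 2341 bp, against 4875 and 2289 bp. H3K27me3 covered 881 and 3321 bp in HisC and 2071 and 2011 bp in w1118.

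An H3K36me3 stretch of numb was looked at in the same way as that of Dl. It is 2559 bp on 2L from 9460314 to 9462872, and it too was picked out after its peaks were seen. Other H3K36me3 stretches were not counted in this way, so nothing is read from the counts. H2AK9ac covered 2053 and 1903 bp of it in HisC and 814 and 1889 bp in w1118, near equal at the later time. Lists of the other 5 marks had a peak there in 11 of 11 cases in HisC and in 5 of 11 in w1118. H3K4me3 covered 1849, 997 and 1575 bp of it in HisC and 0, 0 and 0 bp in w1118. H3K27me3 covered 548 and 1937 bp in HisC and 0 and 0 bp in w1118. The widest w1118 H3K27me3 peaks of numb, 1259 and 1181 bp, started elsewhere, at 9448483 and 9448485, where the HisC lists had none.

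Over the 8 members together, 50.6% and 51.2% of the H3K27ac bases of HisC lay under the w1118 H3K36me3 peaks of the same time, against 27.8% and 37.7% of those of w1118. Over all protein-coding windows the shares were 56.9% and 60.9% in HisC and 30.4% and 49.9% in w1118, so the shift was not particular to the members. For H3K4me3 the members' shares were 48.7% and 52.5% in HisC and 33.2% and 42.7% in w1118, beside 60.0% and 70.5% in HisC and 52.3% and 66.7% in w1118 over all windows. In H3K27ac, Su(H) had 80.6% and 87.7% in HisC, against 1.68% and 74.5% in w1118, and N 14.1% and 14.2%, against 11.9% and 24.1%.

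Set against all genes, the median of HisC minus w1118 over both later times was -20.4 percentage points of the window for the 4 members with H3K27me3 and 7.49 over all tested genes. The H3K27me3 members passed largely through 1 genotype, and Tom and Brd share their place, so this rests on 1 locus. For H3K36me3 the medians were -7.48 for the members and -6.51 for all genes, for H3K27ac -3.82 and -1.68, for H3K4me3 -0.48 and 1.86, for H2BK16ac -0.64 and 1.41, and for H2AK9ac 1.48 and -0.44. Tom and Brd have some of the shortest windows, where 1 peak moves the share most.

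**Figure D4:**
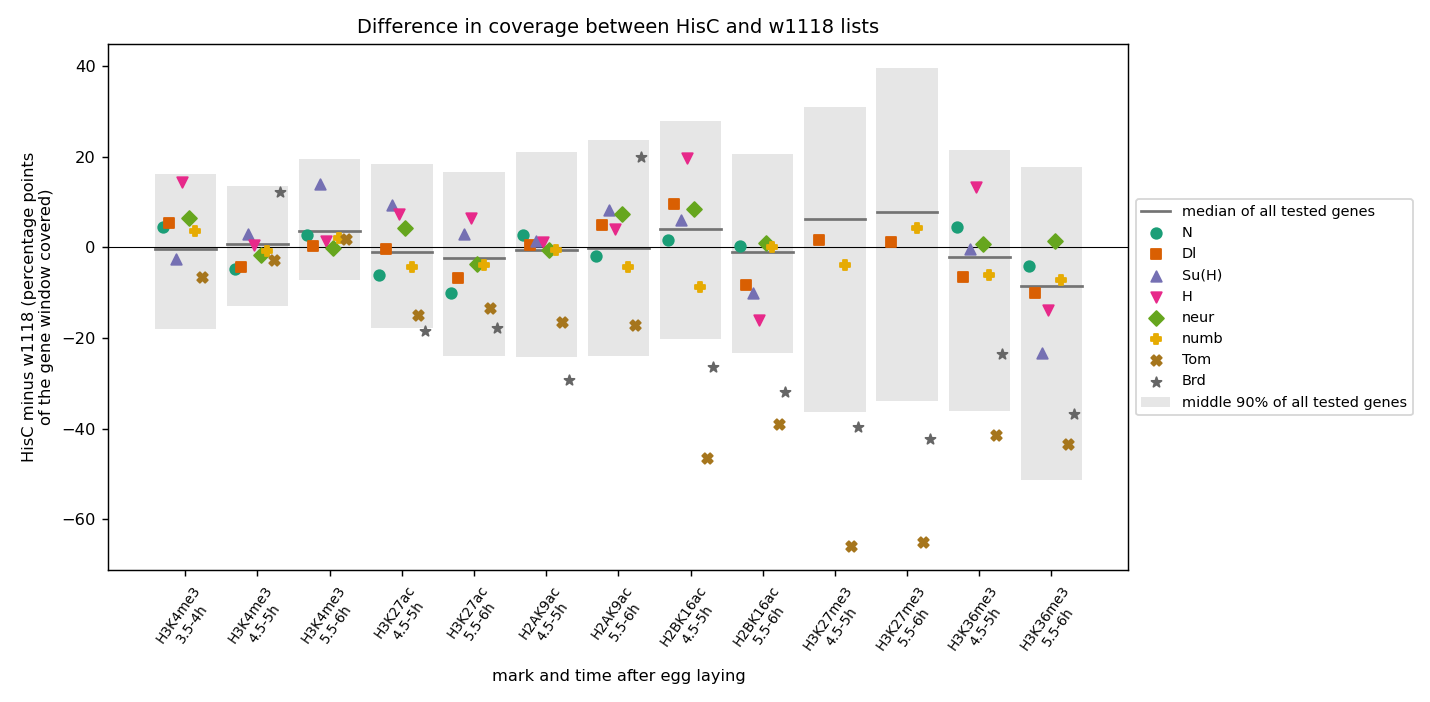
HisC minus w1118 in percentage points of the gene window covered, for each member tested at each mark and time, over the middle 90% (grey bars) and median (grey line) of all tested protein-coding genes. Tom and Brd lie below the grey bar in both H2BK16ac and both H3K27me3 comparisons, and the other members lie within it in those.

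Of 43 other pathway genes listed, 41 were matched in the annotation. By the same rule H3K27me3 was lower in HisC at 11 and higher at 3 of 22 tested, beside 16% and 58.7% of all genes. Of the 11 lower genes 8 were at 0 in both HisC lists, and the 3 higher genes were at 0 in both w1118 lists. These passed the minimum through 1 genotype and had to be called, so the counts are not read against the background. Of these 11, 7 are in the E(spl) complex, whose basic helix-loop-helix repressor genes are the classic targets of Notch, and where 10 of 12 genes were tested. E(spl)m7-HLH had 0 and 0 bp in HisC, against 3129 and 2926 bp in w1118, and E(spl)m1, listed as Kaz-m1, the protease-inhibitor gene of the complex, 0 and 0 bp, against 2685 and 3204 bp. The gene fng, a glycosyltransferase that tunes which ligand Notch answers, had 941 and 2663 bp in HisC and 11925 and 7239 bp in w1118. First among the genes that were higher was l(2)gl, a polarity gene that acts with numb and had 1651 and 1790 bp in HisC and 0 and 0 bp in w1118. These windows overlap within each complex, so their counts are not of independent places.

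H3K36me3 was lower at 10 and higher at 4 of 39 pathway genes, near the 23.4% and 10.9% of all genes. It was lower at insv, a Su(H) corepressor gene, with 947 and 838 bp in HisC, against 3428 and 3678 bp in w1118, and higher at l(2)gl, with 4333 and 4871 bp, against 225 and 345 bp. H3K27ac was lower at 9 and higher at 1 of 40, beside 26% and 15.4%. BobA, also of the Bearded complex, had 0 and 1172 bp in HisC, against 1670 and 2797 bp in w1118. H3K4me3 was lower at 7 and higher at 3 of 40, beside 4.52% and 18.3% of all genes. Of those 7, 5 were in the E(spl) complex. Windows of that complex overlap, so these 5, and the other counts here, are not of separate places. For H3K4me3, E(spl)mdelta-HLH had 606 and 386 bp in HisC, against 2240 and 2769 bp in w1118. The corepressor gene CtBP had more, 3641 and 4484 bp in HisC, against 2014 and 2011 bp in w1118. H2AK9ac was lower at 7 and higher at 9 of 38, beside 13.9% and 13.1%, with Psn, the catalytic part of gamma-secretase, at 2327 and 2089 bp in HisC and 1142 and 673 bp in w1118. H2BK16ac was lower at 3 and higher at 4 of 37, beside 10.7% and 17.6%, and the polarity gene baz had 2359 and 4252 bp in HisC and 623 and 2567 bp in w1118.

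The genes most like each member were found by the mean absolute difference in percent of window covered over all 26 lists. For Tom they were Kaz-m1 and E(spl)m7-HLH, at 11.6 and 11.8 points, against a median of 21.9 points over other genes; both are E(spl) complex genes. For Brd they were Prx6b and firl, at 10.0 and 10.9 points, against a median of 17.9. The longer members lay closer to their nearest genes: N to fz3 and Src42A at 1.98 and 1.98 points, Dl to stx and Src42A at 2.80 and 2.81, numb to sbb and ec at 2.40 and 2.72, and neur to Pdk1 and Iyd at 2.66 and 3.70. Su(H) was nearest to clu and COX6B at 3.64 and 3.84 points, and H to Pcyt1 and SmydA-3 at 3.76 and 3.91.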

How the data were processed

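CUT&Tag libraries of whole embryos were mapped to dm6. The submitters' processing notes name deepTools 3.3.1, SAMtools 1.9, Bowtie2 2.3.4.2, cutadapt 1.17 and Trim Galore 0.6.6. What peak caller and threshold they used is not given in the sources used here. Each deposited list gives the positions of peaks that the authors called on the pooled libraries of a group, narrow for H3K4me3 and H3K27ac and broad for the other marks, with no score, so no error between replicates can be had. Behind the 26 lists are 59 of 81 libraries; the other 22 libraries, in 10 groups, were not analysed here. The name of the HisC list of 3.5 to 4 h notes an exclusion whose meaning is not given. Replicate numbers could not be used as pairs.

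Covered bp per window (gene span with 2 kb each side, RefSeq Release 6 spans) were computed with Python 3.11.15, numpy 2.4.6 and pandas 2.3.3, after a check on simulated data. Calls need 1.5-fold at both later times and 200 bp in 1 list per time. The members and gene lists were chosen with earlier results of these data known. Besides all 8 members, the text names per mark up to 3 other pathway genes per direction, ranked by the smaller of both covered-length differences, and 2 most similar genes per member; others named were chosen after their values were seen. BobB and BobC were not matched. No sequences are shown.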

Additional observations from a re-analysis of the deposited data

Results flagged for a closer look

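HisC minus w1118 had opposite signs at 4.5 to 5 h and 5.5 to 6 h in 16 of 48 pairs of member and mark. In 4 of these the difference was at least 1.5-fold each way. The 48 include H3K27me3 at N, Su(H), H and neur, which was at 0 in every list and could not change sign. The share over all genes was not counted, so nothing is read from these counts. The difference between times was not tested, since each group had 1 pooled list. H2BK16ac over Dl, HisC minus w1118, was 2650 bp at 4.5 to 5 h and -2264 bp at 5.5 to 6 h, with 3375 and 2185 bp in HisC and 725 and 4449 bp in w1118. The same mark over H was 2162 bp and -1749 bp, with 2942 and 574 bp in HisC and 780 and 2323 bp in w1118. H3K27me3 over numb was -1190 bp and 1310 bp, with 881 and 3321 bp in HisC and 2071 and 2011 bp in w1118. H2AK9ac over Brd was -1323 bp and 899 bp, with 0 and 1958 bp in HisC and 1323 and 1059 bp in w1118. In H2BK16ac the median over all tested genes also changed sign, from 4.11 percentage points at 4.5 to 5 h to -1.14 at 5.5 to 6 h.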

How the results depend on the processing

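The lists pool replicates, so leaving out a replicate was not run. No paired analysis was possible because each group has 1 pooled list. Lower H3K36me3 held at Dl and Tom under all 6 alternatives, while at numb it ended at 2-fold and with 5 kb flanks. Tom and Brd were at 0 in HisC for H2BK16ac and H3K27me3, as Brd was for H3K36me3, so these calls could end only by losing the w1118 peaks, and their lasting through all 6 is no sign of stability. With peaks of at least 500 bp, higher H3K27ac fell to 0 members, higher H2BK16ac came to 1 (neur) and higher H3K27me3 to 0. With equal numbers of the widest peaks, higher H3K27me3 came to 0, as with at least 500 bp covered. Without flanks, lower H3K4me3 came to 1 (neur), lower H3K27ac to 1 (N), lower H2AK9ac to 0 and higher H2AK9ac to 1 (H). With 5 kb flanks, higher H3K4me3 came to 1 (H), lower H3K27ac to 1 (N), lower H2AK9ac to 0, higher H2AK9ac to 1 (Su(H)) and higher H3K27me3 to 2 (N and Dl). At 2-fold, lower H3K27ac, higher H3K27ac and lower H2AK9ac came to 0. The cause of these shifts was not tested. Positions alone cannot show a change in height under a peak, and where a list has no peak, a level under the caller's threshold is possible.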

Other observations

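The E(spl) complex, 12 genes on 3R that are mostly Notch targets, was taken from E(spl)mdelta-HLH to E(spl)m8-HLH with flanks, 47.4 kb from 25995621 to 26043008, after the member values were seen. H3K27me3 covered 4864 and 3975 bp in HisC at 4.5 to 5 h and 5.5 to 6 h, against 27154 and 15878 bp in w1118, and the widest peak was 3848 and 2910 bp in HisC, against 10442 and 3523 bp in w1118. H3K4me3 covered 7840, 6276 and 7135 bp in HisC over the 3 times, against 12404, 10091 and 11302 bp in w1118. H3K27ac covered 6568 and 7464 bp in HisC, against 10204 and 14882 bp in w1118. H3K36me3 covered 3514 and 7725 bp in HisC, against 7757 and 10035 bp in w1118, and H2BK16ac 6310 and 3375 bp, against 8621 and 5763 bp. H2AK9ac went both ways, with 4473 and 8385 bp in HisC and 5948 and 5764 bp in w1118. Unlike the Bearded complex, the E(spl) complex had peaks of all 6 marks in HisC at both later times, and its H3K4me3 was shorter in HisC at all 3 times. No test of the difference between the complexes could be made.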
